A study of Mus musculus with 11 samples.

Results

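Glycosyltransferases are enzymes that transfer sugars. Those of the families described here are mostly Golgi enzymes that add sugars one at a time to proteins and lipids. The genes described here are the numbered members of 12 mouse gene families, picked by gene symbol. The families are Galnt, B3gnt, B3galt, B4galt, B4galnt, St3gal, St6gal, St6galnac, St8sia, Fut, Gcnt and Mgat. They were chosen with earlier results of these data known. Of 19936 genes measured in rectal mucosa, 83 belong to these families. RefSeq lists 85 protein-coding genes with such symbols. Fut1 and B4galt2 were not analysed here, because no transcript cluster carried their symbol alone.

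In the colon and rectum, goblet cells secrete mucins whose chains are mostly O-linked sugar. Galnt enzymes start each O-glycan with an N-acetylgalactosamine, core enzymes add the next sugar, branching and extension enzymes build the chain, and fucosyl- and sialyltransferases cap it. Mgat enzymes branch the N-glycans of membrane and secreted proteins, and several B4galt, B3gnt and St8sia enzymes build glycolipids.

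Expression was measured on Affymetrix Mouse Gene 1.0 ST arrays, with 1 array for each of 11 mice aged 10 weeks and raised in conventional facilities. There were 4 mutant mice given tamoxifen (mutant tamoxifen), 4 mutant mice given NaCl in its place (mutant NaCl) and 3 wild-type mice given tamoxifen (control tamoxifen). The mutants are called α6ΔIEC-TAM in the labels, and in them tamoxifen is meant to delete Itga6, the gene for integrin α6, which anchors epithelial cells to the basement membrane. The promoter that drives the recombinase is not given in the sources used here. Gavage, with 10 mg of tamoxifen a day in 2 doses over 5 days or with NaCl, began at 8 weeks of age, and the mucosa was taken 15 days after the first gavage. Males made up 1 of 4 mutant tamoxifen, 1 of 4 mutant NaCl and 2 of 3 control tamoxifen mice.

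Levels are deposited log2 values, so a difference of 1 is a factor of 2. Differences are from a limma fit of all genes on all 11 arrays with a term for sex, and can therefore depart from the difference of the group means. A gene was called when its p, adjusted by the Benjamini-Hochberg method over all genes, was under 0.05. The 2 comparisons of mutant tamoxifen mice, with control tamoxifen and with mutant NaCl mice, share the same mutant tamoxifen arrays. Array numbers only name arrays and pair none. P-values set a difference against the spread between arrays of separate mice, estimated over all 11 arrays. With 3 or 4 arrays a group, their precision is limited.

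Itga6 itself was at 11.75, 11.93, 11.84 and 11.77 in mutant tamoxifen mice, at 11.39, 11.28, 11.49 and 11.47 in mutant NaCl mice, and at 11.15, 11.52 and 11.49 in control tamoxifen mice. It was thus higher, not lower, in the arrays labelled mutant tamoxifen (limma, log2 difference from control tamoxifen 0.42, adjusted p = 0.00949). Whether its probes lie inside the stretch that is deleted is not given in the sources used here, so this gene does not check the labels. Directions below are those of the labels.

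Markers of several cell types also differed between the groups. All 8 smooth muscle markers fell against both other groups, with array means of 12.10 to 12.25 in mutant tamoxifen, 12.45 to 12.71 in mutant NaCl and 12.62 to 12.72 in control tamoxifen mice. All 8 neutrophil markers rose against both, with means of 7.06 to 7.58 in mutant tamoxifen, 6.29 to 6.36 in mutant NaCl and 6.25 to 6.50 in control tamoxifen mice. Of 8 absorptive colonocyte markers 5 fell and 1, Krt20, rose in either comparison, with means of 11.14 to 11.42 in mutant tamoxifen, 11.74 to 11.92 in mutant NaCl and 11.75 to 12.17 in control tamoxifen mice. The 7 goblet markers measured had overlapping means, 12.36 to 12.76 in mutant tamoxifen, 12.33 to 12.57 in mutant NaCl and 12.42 to 12.66 in control tamoxifen mice. Against control tamoxifen, Agr2, Spdef and Spink4 rose and Tff3 and Zg16 fell. Against mutant NaCl, 4 goblet markers rose and 2 fell. The 6 epithelial markers had means of 12.14 to 12.37 in mutant tamoxifen, 12.02 to 12.12 in mutant NaCl and 12.06 to 12.16 in control tamoxifen mice. Of these, Krt19 rose against control tamoxifen (0.16, adjusted p = 0.0378), and Krt8 (0.11, adjusted p = 0.0174), Krt19 (0.13, adjusted p = 0.0485) and Cdx2 (0.83, adjusted p = 0.019) rose against mutant NaCl. Of 5 enteric neuron and glia markers 3 fell against control tamoxifen and 2 against mutant NaCl, with means of 7.27 to 7.41 in mutant tamoxifen, 7.62 to 7.72 in mutant NaCl and 7.64 to 7.77 in control tamoxifen mice. Of 6 plasma cell markers 2, Prdm1 and Sdc1, rose in both comparisons, with means of 10.44 to 10.69 in mutant tamoxifen, 9.92 to 10.39 in mutant NaCl and 10.02 to 10.39 in control tamoxifen mice. Of 6 macrophage and dendritic markers 1, Cd68, fell against control tamoxifen and 0 passed against mutant NaCl, with means of 8.95 to 9.07 in mutant tamoxifen, 9.01 to 9.22 in mutant NaCl and 9.08 to 9.50 in control tamoxifen mice. The mean of 8 squamous epithelium markers varied most within groups, at 9.57, 9.73, 8.30 and 9.70 in mutant tamoxifen, 9.30, 9.52, 8.37 and 8.96 in mutant NaCl, and 6.48, 9.64 and 7.31 in control tamoxifen mice. In bulk tissue, fewer cells of a type and less RNA per cell cannot be told apart. The part of these markers in the results below was not tested, except for the squamous mean, which was added to the fit as a term after the data had been seen.

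Against control tamoxifen mice, 18 of the 83 glycosyltransferase genes rose and 11 fell in mutant tamoxifen mice. That is 34.9% of members, where 24.6% of all genes were called, 12.9% higher and 11.8% lower. Against mutant NaCl mice, 20 members rose and 14 fell, 41.0% of members, where 23.2% of all genes were called, 12.5% higher and 10.7% lower. Of the members, 60.2% had a mean level above the median of all genes. With the lowest 25% of genes left out, 33.5% of the rest were called against control tamoxifen and 32.4% against mutant NaCl. With the lowest 50% left out, these shares were 40.4% and 40.8%. Whether members differ from other genes of like level was not tested. The median difference over members was 0.00 against control tamoxifen and 0.02 against mutant NaCl, beside -0.02 and -0.01 over all genes. The changes therefore ran both ways around a median near that of all genes. All arrays of mutant tamoxifen mice lay above or below all control tamoxifen arrays for 42 members (50.6%), where 37.4% of all genes did so. Against mutant NaCl, 38 members (45.8%) were apart in this way, where 26.8% of all genes were.

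**Figure D1:**
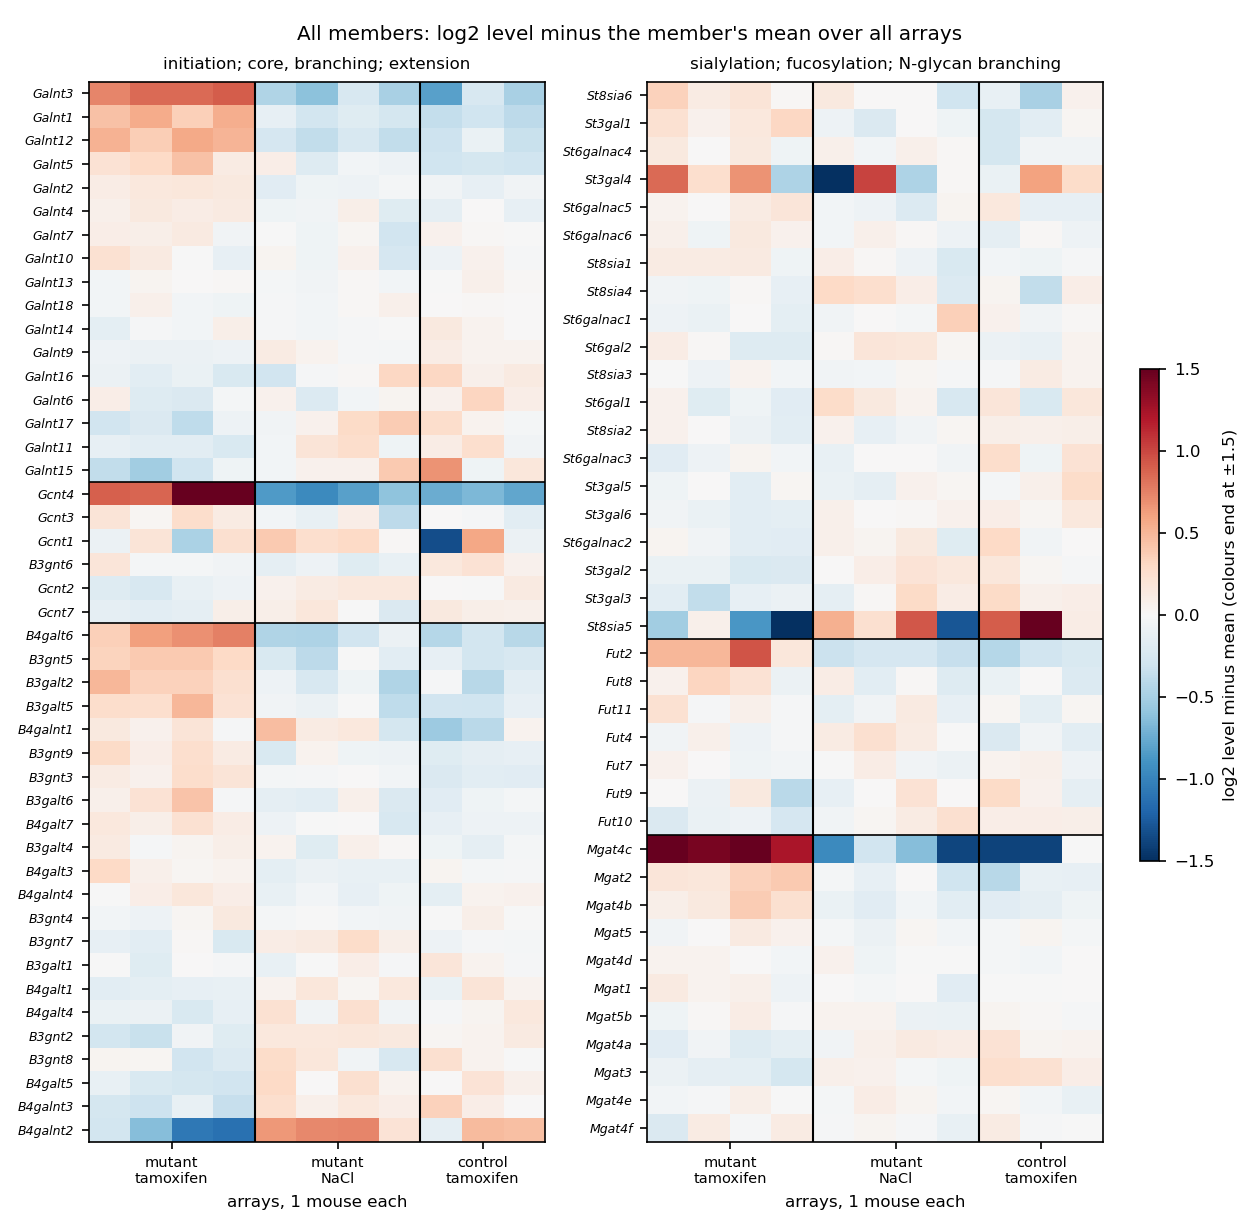
Each row is 1 of the 83 members and each column 1 array, grouped as mutant tamoxifen, mutant NaCl and control tamoxifen. Colour gives the log2 level minus that gene's mean over all arrays, and colours end at ±1.5. Galnt3, Gcnt4, B4galt6, Fut2 and Mgat4c are red in the 4 mutant tamoxifen arrays and B4galnt2 is blue, while most rows are pale.

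The promoters of 3 members that moved far in mutant tamoxifen mice are shown for reference, 2 higher (Gcnt4 and Galnt3) and 1 lower (B4galnt2). Each is the RefSeq window of GRCm38.p6 that runs from 250 bases before a gene's start to 50 after it, 5′ to 3′ on the gene's strand. Mgat4c is not printed, and for Gcnt4 the first of 2 windows is given. Capitals mark matches on either strand to 5 motifs, which are the TATA box TATAAA, the GC box GGGCGG, the AP-1 site TGANTCA, the STAT site TTCNNNGAA and the CDX site TTTATG. No match to one motif overlapped a match to another in the 3 windows.
Gcnt4, plus strand, chr13:96924094-96924393: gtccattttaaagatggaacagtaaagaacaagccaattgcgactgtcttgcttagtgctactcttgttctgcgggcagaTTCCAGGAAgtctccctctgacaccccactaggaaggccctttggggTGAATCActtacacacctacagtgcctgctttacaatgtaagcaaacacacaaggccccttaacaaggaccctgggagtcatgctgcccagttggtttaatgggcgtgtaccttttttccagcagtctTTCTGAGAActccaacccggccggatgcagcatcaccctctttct
Galnt3, minus strand, chr2:66124744-66125043: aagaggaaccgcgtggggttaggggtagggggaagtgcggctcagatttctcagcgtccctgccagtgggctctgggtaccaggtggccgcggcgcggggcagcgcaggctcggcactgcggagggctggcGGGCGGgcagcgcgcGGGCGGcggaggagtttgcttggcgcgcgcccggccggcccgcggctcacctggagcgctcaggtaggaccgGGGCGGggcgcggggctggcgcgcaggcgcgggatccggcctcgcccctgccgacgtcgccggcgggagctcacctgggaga
B4galnt2, minus strand, chr11:95914822-95915121: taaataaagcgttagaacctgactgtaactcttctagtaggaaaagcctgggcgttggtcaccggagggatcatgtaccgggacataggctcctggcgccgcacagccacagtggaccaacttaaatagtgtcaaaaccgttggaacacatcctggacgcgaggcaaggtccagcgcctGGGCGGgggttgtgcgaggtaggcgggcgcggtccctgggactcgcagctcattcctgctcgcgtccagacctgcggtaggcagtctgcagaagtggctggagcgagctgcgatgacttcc
The Gcnt4 window held STAT and AP-1 matches and no GC box, whereas the Galnt3 and B4galnt2 windows held GC boxes alone. Windows were found for 61 of the 83 members. A GC box was present in 39 of these (63.9%), against 35.9% of the windows of all 27025 genes. These are all genes with a window, more than the 19936 measured here, and were not matched to the members by level or gene type. STAT matches were in 8.2% of member windows and 8.47% of all windows, AP-1 matches in 6.56% and 7.93%, CDX matches in 8.2% and 12.1%, and TATA boxes in 1.64% and 14.2%. A match describes letters only.

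The Galnt genes carry out the first step of mucin O-glycosylation. Of 17 Galnt genes, 5 rose and 3 fell against control tamoxifen (47.1%, beside 24.6% of all genes called). Against mutant NaCl, 6 rose and 3 fell (52.9%, beside 23.2% of all genes). The largest rise was that of Galnt3, which also glycosylates the hormone FGF23. Galnt3 (gene ID 14425) was at 10.77, 10.89, 10.89 and 10.95 in mutant tamoxifen mice, at 9.59, 9.42, 9.80 and 9.56 in mutant NaCl mice, and at 9.23, 9.80 and 9.55 in control tamoxifen mice. All 4 mutant tamoxifen arrays lay close together and well above the highest array of either other group. The gene was 2.45-fold higher than in control tamoxifen mice (limma, log2 difference 1.29, SE 0.12, adjusted p = 0.000147) and 2.43-fold higher than in mutant NaCl mice (adjusted p = 4.37e-05).

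Galnt1, a broadly expressed initiating enzyme, was at 10.10, 10.22, 10.02 and 10.20 in mutant tamoxifen mice, at 9.54, 9.38, 9.48 and 9.40 in mutant NaCl mice, and at 9.30, 9.36 and 9.27 in control tamoxifen mice. It had the smallest adjusted p of all members, with log2 differences of 0.78 from control tamoxifen (limma, SE 0.06, adjusted p = 3.6e-05) and 0.68 from mutant NaCl (SE 0.052, adjusted p = 2.81e-05). Galnt12, known in humans for variants linked to colorectal cancer, was at 10.57, 10.42, 10.61 and 10.56 in mutant tamoxifen mice, at 9.79, 9.68, 9.81 and 9.68 in mutant NaCl mice, and at 9.73, 9.95 and 9.71 in control tamoxifen mice. As for Galnt1, no array of another group reached the mutant tamoxifen range. Galnt12 was 1.64-fold higher than in control tamoxifen mice (limma, log2 difference 0.71, SE 0.074, adjusted p = 0.000216) and 1.74-fold higher than in mutant NaCl mice (log2 difference 0.80, adjusted p = 3.83e-05).

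Galnt5 was at 9.27, 9.35, 9.49 and 9.18 in mutant tamoxifen mice, at 9.15, 8.86, 9.01 and 8.98 in mutant NaCl mice, and at 8.76, 8.79 and 8.75 in control tamoxifen mice. The lowest mutant tamoxifen array was only just above the highest mutant NaCl array, and the mutant NaCl arrays in turn lay above all control tamoxifen arrays. Its log2 difference was 0.58 from control tamoxifen (limma, SE 0.088, adjusted p = 0.00138) and 0.32 from mutant NaCl (SE 0.076, adjusted p = 0.0118). Galnt2, another broadly expressed initiating enzyme, rose less, by 0.25 (adjusted p = 0.00463) against control tamoxifen and 0.23 (adjusted p = 0.0036) against mutant NaCl on the log2 scale. Galnt4, which acts on peptides that already carry a sugar, passed only against mutant NaCl (log2 difference 0.16, adjusted p = 0.0433), and its difference from control tamoxifen was 0.15 (adjusted p = 0.0897). Whether the 2 differences differ was not tested.

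Galnt15 was at 7.62, 7.47, 7.69 and 7.93 in mutant tamoxifen mice, at 7.95, 8.05, 8.05 and 8.38 in mutant NaCl mice, and at 8.66, 7.93 and 8.16 in control tamoxifen mice. The highest mutant tamoxifen array all but met the lowest array of each other group. Its log2 difference was -0.46 from control tamoxifen (limma, SE 0.15, adjusted p = 0.0463) and -0.43 from mutant NaCl (SE 0.13, adjusted p = 0.0364). Galnt17 was at 7.09, 7.16, 6.99 and 7.30 in mutant tamoxifen mice, at 7.32, 7.44, 7.66 and 7.75 in mutant NaCl mice, and at 7.64, 7.43 and 7.34 in control tamoxifen mice. It fell against mutant NaCl (limma, log2 difference -0.41, SE 0.11, adjusted p = 0.0196), and its difference from control tamoxifen was -0.32 (adjusted p = 0.0873).

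Galnt11 fell by 0.33 (adjusted p = 0.022) against control tamoxifen and by 0.26 (adjusted p = 0.0336) against mutant NaCl on the log2 scale. Galnt9 fell by 0.17 (adjusted p = 0.0371) against control tamoxifen and had a log2 difference of -0.12 (adjusted p = 0.078) from mutant NaCl. The other 7 Galnt genes passed in neither comparison, and their log2 differences ran from -0.29 to 0.02 against control tamoxifen and from -0.15 to 0.15 against mutant NaCl. Single arrays decided several of the smaller calls. Against control tamoxifen, Galnt11 did not pass without control tamoxifen array 1 (-0.30, adjusted p = 0.0596) or 2 (-0.27, adjusted p = 0.151), and neither Galnt15 (-0.30 to -0.59) nor Galnt9 (-0.15 to -0.20) passed in 9 of the 11 fits that each left out 1 array. The exceptions were mutant tamoxifen array 4 and control tamoxifen array 3 for Galnt15, and mutant NaCl arrays 1 and 3 for Galnt9. Against mutant NaCl, leaving out 1 array ended the call of Galnt15 in 7 fits (-0.33 to -0.46), of Galnt4 in 8 (0.13 to 0.17), of Galnt11 in 6 (-0.21 to -0.28) and of Galnt17 in 3 (-0.31 to -0.36). Against control tamoxifen, Galnt4 passed without mutant NaCl array 3 (0.16, adjusted p = 0.0451) and Galnt17 without mutant NaCl array 4 (-0.37, adjusted p = 0.044). The arrays that ended a call against mutant NaCl were every mutant tamoxifen and mutant NaCl array except mutant tamoxifen array 4 for Galnt15, and mutant tamoxifen arrays 2 to 4, mutant NaCl arrays 1, 2 and 4 and control tamoxifen arrays 2 and 3 for Galnt4. They were mutant tamoxifen arrays 1, 2 and 4 and mutant NaCl arrays 2 to 4 for Galnt11, and mutant tamoxifen array 3 and mutant NaCl arrays 3 and 4 for Galnt17.

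The second step, in which the core of the O-glycan is set and branched, showed 1 large change among 6 genes. Of these, 1 rose and 0 fell against control tamoxifen (16.7%, beside 24.6% of all genes called). Against mutant NaCl, 1 rose and 1 fell (33.3%, beside 23.2% of all genes). Gcnt4, one of the core 2 branching enzymes, was 1 of the 2 members that rose most. Gcnt4 (gene ID 218476) was at 8.22, 8.19, 8.85 and 9.42 in mutant tamoxifen mice, at 6.47, 6.36, 6.51 and 6.72 in mutant NaCl mice, and at 6.58, 6.65 and 6.54 in control tamoxifen mice. The mutant tamoxifen arrays were spread over 1.23 log2 units, yet the lowest of them was far above every other array. Gcnt4 was 4.42-fold higher than in control tamoxifen mice (limma, log2 difference 2.14, SE 0.26, adjusted p = 0.000492) and 4.46-fold higher than in mutant NaCl mice (log2 difference 2.16, SE 0.23, adjusted p = 0.000172).

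The other core 2 enzymes did not pass. Gcnt3, the mucin-type enzyme that makes core 2 and core 4, was at 9.79, 9.62, 9.85 and 9.72 in mutant tamoxifen mice, at 9.55, 9.48, 9.69 and 9.20 in mutant NaCl mice, and at 9.60, 9.58 and 9.43 in control tamoxifen mice. Its log2 difference was 0.17 from control tamoxifen (limma, adjusted p = 0.282) and 0.27 from mutant NaCl (adjusted p = 0.0601). The second value passed without mutant tamoxifen array 2 (0.32, adjusted p = 0.0459) or mutant NaCl array 3 (0.33, adjusted p = 0.0323).

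Gcnt1 was at 9.63, 9.91, 9.25 and 9.96 in mutant tamoxifen mice, at 10.11, 9.97, 10.02 and 9.74 in mutant NaCl mice, and at 8.39, 10.30 and 9.63 in control tamoxifen mice. The control tamoxifen arrays alone spanned 1.92 log2 units, in the same order as their squamous marker means of 6.48, 9.64 and 7.31. The orders did not match in mutant NaCl arrays, with marker means of 9.30, 9.52, 8.37 and 8.96. In mutant tamoxifen arrays (9.57, 9.73, 8.30 and 9.70) they differed only between arrays 2 and 4. The log2 difference of Gcnt1 was -0.05 from control tamoxifen (limma, 95% confidence interval -0.66 to 0.57) and -0.27 from mutant NaCl (-0.81 to 0.26). Without control tamoxifen array 1 both passed, at -0.40 (adjusted p = 0.0326) and -0.27 (adjusted p = 0.0496). With the squamous mean as a term the differences were -0.44 (adjusted p = 0.257) and -0.39 (adjusted p = 0.166). Over all alternatives, the difference from control tamoxifen ran from -0.47 to 0.35, so its direction was not settled. That from mutant NaCl ran from -0.39 to -0.12.

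B3gnt6, the core 3 synthase of the colon, was at 6.46, 6.25, 6.25 and 6.22 in mutant tamoxifen mice, at 6.14, 6.20, 6.09 and 6.16 in mutant NaCl mice, and at 6.44, 6.49 and 6.34 in control tamoxifen mice. It lay between the other groups, with log2 differences of -0.15 from control tamoxifen (limma, adjusted p = 0.129) and 0.14 from mutant NaCl (adjusted p = 0.103). Without mutant tamoxifen array 1 the first passed (-0.19, adjusted p = 0.0314). The files used here give no detection call, so whether levels this low are above background is not known. Gcnt2, which makes the branches of the I blood group antigen, fell by 0.28 (adjusted p = 0.00384) against mutant NaCl on the log2 scale, and its difference from control tamoxifen was -0.17 (adjusted p = 0.0659), which passed without mutant tamoxifen array 4 (-0.20, adjusted p = 0.0367).

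**Figure D2:**
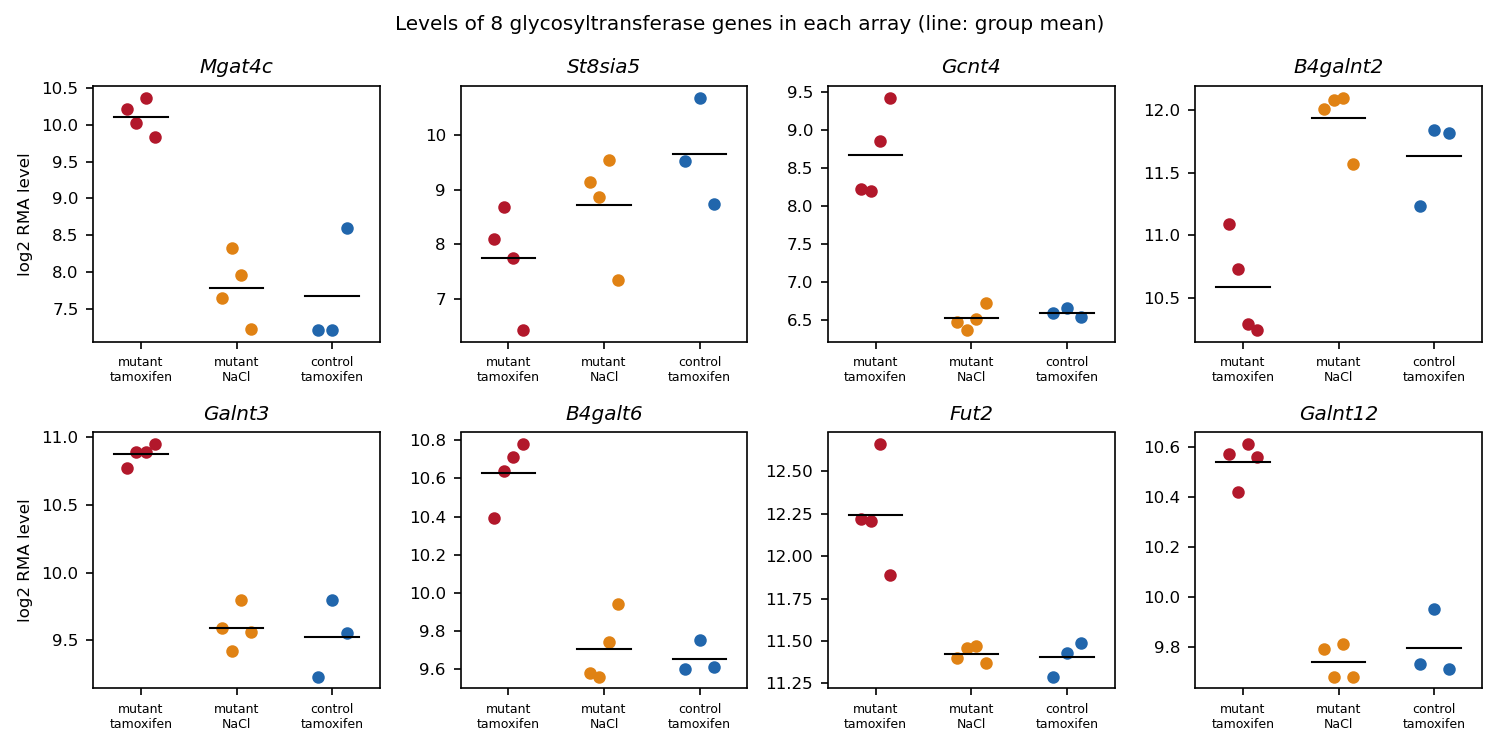
Each panel plots the log2 level of 1 member, with a point for each array and a line at the group mean, for mutant tamoxifen, mutant NaCl and control tamoxifen mice. The panels have their own axes, which do not start at 0. They show the 8 members with the largest differences. In 7 of the panels every mutant tamoxifen array lies apart from all arrays of both other groups, and for St8sia5 the mutant tamoxifen and mutant NaCl arrays overlap.

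Of 22 chain extension genes, 7 rose and 4 fell against control tamoxifen (50%, beside 24.6% of all genes called). Against mutant NaCl, 8 rose and 6 fell (63.6%, beside 23.2% of all genes). B4galnt2, which makes the Sda antigen of colonic mucins and glycolipids, fell most among these members. B4galnt2 (gene ID 14422) was at 11.09, 10.73, 10.29 and 10.24 in mutant tamoxifen mice, at 12.01, 12.08, 12.10 and 11.57 in mutant NaCl mice, and at 11.23, 11.84 and 11.82 in control tamoxifen mice. The highest mutant tamoxifen array was close to the lowest control tamoxifen array, and the groups did not overlap. B4galnt2 was 2.31-fold lower than in control tamoxifen mice (limma, log2 difference -1.21, SE 0.19, adjusted p = 0.00161) and 2.55-fold lower than in mutant NaCl mice (log2 difference -1.35, SE 0.16, adjusted p = 0.000388). B4galnt3, which makes LacdiNAc, was at 10.56, 10.52, 10.71 and 10.48 in mutant tamoxifen mice, at 11.08, 10.90, 10.98 and 10.92 in mutant NaCl mice, and at 11.17, 10.93 and 10.83 in control tamoxifen mice. It also fell, by 0.38 (limma, adjusted p = 0.0109) against control tamoxifen and by 0.40 (adjusted p = 0.00435) against mutant NaCl on the log2 scale.

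The 2 lactosylceramide synthases moved in opposite directions. B4galt6 was at 10.39, 10.64, 10.71 and 10.78 in mutant tamoxifen mice, at 9.58, 9.56, 9.74 and 9.94 in mutant NaCl mice, and at 9.60, 9.75 and 9.61 in control tamoxifen mice. It was 2.03-fold higher than in control tamoxifen mice (limma, log2 difference 1.02, SE 0.11, adjusted p = 0.000273) and 1.9-fold higher than in mutant NaCl mice (log2 difference 0.92, adjusted p = 0.000168). B4galt5 was at 10.37, 10.26, 10.22 and 10.19 in mutant tamoxifen mice, at 10.78, 10.49, 10.72 and 10.54 in mutant NaCl mice, and at 10.49, 10.69 and 10.56 in control tamoxifen mice. Every mutant tamoxifen array was above all others for B4galt6 and below all others for B4galt5. B4galt5 fell by 0.37 (limma, adjusted p = 0.00755) against control tamoxifen and by 0.38 (adjusted p = 0.00335) against mutant NaCl on the log2 scale.

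B3gnt5 and B3galt5 rose. B3gnt5, which starts the lacto-series of glycolipids, was at 11.13, 11.19, 11.18 and 11.09 in mutant tamoxifen mice, at 10.56, 10.40, 10.79 and 10.64 in mutant NaCl mice, and at 10.67, 10.52 and 10.55 in control tamoxifen mice. Its log2 difference was 0.60 from control tamoxifen (limma, SE 0.084, adjusted p = 0.000973) and 0.55 from mutant NaCl (SE 0.073, adjusted p = 0.000605). B3galt5, which makes type 1 chains in gut epithelium, was at 11.83, 11.82, 12.07 and 11.79 in mutant tamoxifen mice, at 11.52, 11.48, 11.56 and 11.19 in mutant NaCl mice, and at 11.28, 11.27 and 11.44 in control tamoxifen mice. For both genes the mutant tamoxifen arrays lay above all others. B3galt5 was 1.46-fold higher than in control tamoxifen mice (limma, log2 difference 0.54, SE 0.1, adjusted p = 0.00444) and 1.35-fold higher than in mutant NaCl mice (log2 difference 0.44, adjusted p = 0.00632).

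B3galt2, another β1,3-galactosyltransferase, was at 7.35, 7.19, 7.19 and 7.09 in mutant tamoxifen mice, at 6.77, 6.61, 6.79 and 6.40 in mutant NaCl mice, and at 6.83, 6.43 and 6.69 in control tamoxifen mice. It rose by 0.55 (limma, SE 0.12, adjusted p = 0.00959) against control tamoxifen and by 0.56 (SE 0.11, adjusted p = 0.0042) against mutant NaCl on the log2 scale. B3gnt2, the main polylactosamine synthase, was at 8.77, 8.72, 9.0 and 8.87 in mutant tamoxifen mice, at 9.21, 9.21, 9.22 and 9.20 in mutant NaCl mice, and at 9.08, 9.10 and 9.18 in control tamoxifen mice. The mutant tamoxifen arrays were below all others for B3gnt2. Its log2 difference was -0.25 from control tamoxifen (limma, SE 0.066, adjusted p = 0.0207) and -0.37 from mutant NaCl (SE 0.057, adjusted p = 0.0014).

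Smaller differences passed for 6 further extension genes. B3gnt3, which extends core 1, rose by 0.35 (adjusted p = 0.00119) against control tamoxifen and by 0.18 (adjusted p = 0.0161) against mutant NaCl on the log2 scale. B3gnt9 rose by 0.35 (adjusted p = 0.00932) and 0.27 (adjusted p = 0.0153) in the same comparisons. B4galt7, which builds the linker of proteoglycans, rose by 0.22 in each (adjusted p = 0.0469 and 0.0236). Against mutant NaCl alone, B4galt3 rose by 0.22 (adjusted p = 0.0264), B3gnt7, which acts on keratan sulfate and polylactosamine, fell by 0.28 (adjusted p = 0.00738), and B4galt1, the major β1,4-galactosyltransferase, fell by 0.24 (adjusted p = 0.0166). Their log2 differences from control tamoxifen were 0.11, -0.08 and -0.20 (adjusted p = 0.321, 0.448 and 0.0643). Of the 8 extension genes that passed in neither comparison, B4galnt1, which makes GM2 and GD2, had the largest difference from control tamoxifen (0.36, adjusted p = 0.167).

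Control tamoxifen array 2, from the group's 1 female, decided several calls against that group. Without it the log2 difference was 0.32 for B3galt2 (adjusted p = 0.116), -0.22 for B3gnt2 (adjusted p = 0.137), -0.33 for B4galt5 (adjusted p = 0.065) and -0.39 for B4galnt3 (adjusted p = 0.0589). Mutant tamoxifen array 3, from that group's 1 male, did so for B3galt2 (0.55 without it, adjusted p = 0.0505) and B3gnt9 (0.32, adjusted p = 0.064), and control tamoxifen array 3 for B3gnt2 (-0.23, adjusted p = 0.0506). The B4galt7 call against control tamoxifen did not hold without any one of 9 arrays, all except mutant NaCl arrays 3 and 4 (0.12 to 0.23). The B4galt1 difference from control tamoxifen passed without control tamoxifen array 1 (-0.26, adjusted p = 0.0176) or mutant NaCl array 4 (-0.22, adjusted p = 0.0422). Against mutant NaCl, leaving out mutant tamoxifen array 3 ended the calls of B3gnt3 (0.14, adjusted p = 0.0612), B3gnt9 (0.25, adjusted p = 0.0577) and B4galt7 (0.17, adjusted p = 0.0887). Mutant NaCl array 4 did so for B3gnt3 (0.16, adjusted p = 0.0565), B4galt7 (0.16, adjusted p = 0.0766) and B4galt1 (-0.20, adjusted p = 0.0612), array 1 for B4galt7 (0.22, adjusted p = 0.0525), array 2 for B4galt1 (-0.22, adjusted p = 0.0526), and arrays 1, 2 or 3 for B4galt3 (0.21 to 0.23).

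Few of the genes that cap chains with sialic acid passed, namely 3 of 20 in each comparison, with 1 higher and 2 lower. That was 15.0%, below the share of all genes in both. St8sia5, which adds sialic acid to gangliosides, differed most. St8sia5 (gene ID 225742) was at 8.10, 8.69, 7.75 and 6.42 in mutant tamoxifen mice, at 9.15, 8.86, 9.55 and 7.34 in mutant NaCl mice, and at 9.53, 10.69 and 8.73 in control tamoxifen mice. Arrays spread over about as much as the groups differed, the mutant tamoxifen arrays over 2.26 log2 units, the mutant NaCl arrays over 2.21 and the control tamoxifen arrays over 1.96. The log2 difference was -2.38 from control tamoxifen (limma, SE 0.55, adjusted p = 0.0107) and -0.99 from mutant NaCl (SE 0.48, adjusted p = 0.172). Without control tamoxifen array 2, the highest array, the call against control tamoxifen was lost (-2.08, adjusted p = 0.0862), as it was with the squamous mean as a term (-2.10, adjusted p = 0.056).

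St3gal1, which sialylates core 1, rose by 0.32 (limma, adjusted p = 0.0264) against control tamoxifen and by 0.28 (adjusted p = 0.0282) against mutant NaCl on the log2 scale. A second St3gal1 transcript cluster disagreed, with differences of -0.06 (adjusted p = 0.613) and -0.01 (adjusted p = 0.925). St3gal6 fell by 0.19 (adjusted p = 0.0173) against control tamoxifen and by 0.15 (adjusted p = 0.029) against mutant NaCl. St3gal2 fell by 0.28 against mutant NaCl (adjusted p = 0.0104), with a difference of -0.22 from control tamoxifen (adjusted p = 0.056). The last passed without control tamoxifen array 3 (-0.25, adjusted p = 0.0485) or mutant NaCl array 1 (-0.22, adjusted p = 0.0485). Against control tamoxifen, St3gal1 did not pass without mutant tamoxifen array 3 (0.36, adjusted p = 0.0748) or control tamoxifen array 1 (0.27, adjusted p = 0.0729) or 2 (0.30, adjusted p = 0.135), and St3gal6 did not pass without mutant tamoxifen array 3 (-0.14, adjusted p = 0.122). Against mutant NaCl, St3gal1 did not pass without mutant tamoxifen arrays 1, 3 or 4 or mutant NaCl arrays 1, 2 or 4 (0.24 to 0.30), nor St3gal6 without mutant tamoxifen arrays 3 or 4 or any mutant NaCl array (-0.12 to -0.16).

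None of the 6 St6galnac genes passed in either comparison, where 24.6% and 23.2% of all genes were called. Their log2 differences ran from -0.19 to 0.17 against control tamoxifen and from -0.15 to 0.16 against mutant NaCl. At an unadjusted p under 0.05 there were 0 against control tamoxifen and 2 against mutant NaCl. The shares of all genes at that level were 37.3% and 34.7%. St6galnac1, which makes the sialyl-Tn antigen, was at 5.65, 5.63, 5.73 and 5.58 in mutant tamoxifen mice, at 5.68, 5.73, 5.70 and 6.08 in mutant NaCl mice, and at 5.79, 5.68 and 5.75 in control tamoxifen mice. All groups overlapped, and the differences were -0.01 from control tamoxifen (limma, 95% confidence interval -0.15 to 0.12) and -0.15 from mutant NaCl (-0.26 to -0.03, adjusted p = 0.0682). St3gal4, an α2,3-sialyltransferase, had the widest spread within a group of any member. It was at 10.78, 10.18, 10.60 and 9.47 in mutant tamoxifen mice, at 7.26, 10.94, 9.46 and 9.95 in mutant NaCl mice, and at 9.83, 10.53 and 10.20 in control tamoxifen mice. Its differences were 0.17 from control tamoxifen (limma, 95% confidence interval -1.43 to 1.78) and 0.85 from mutant NaCl (-0.54 to 2.25), so changes of several fold were not detectable.

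**Figure D3:**
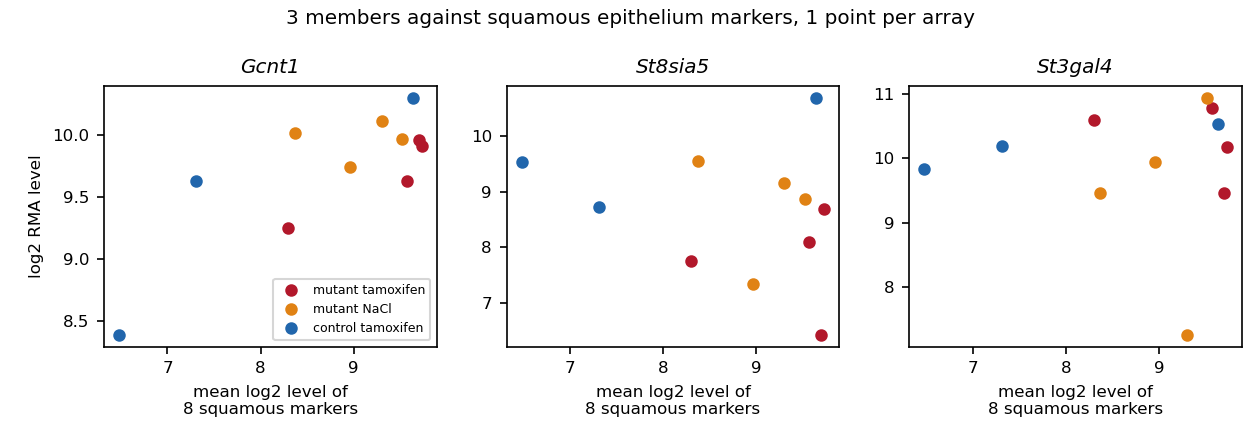
The log2 level of Gcnt1, St8sia5 and St3gal4, the 3 members with the widest range within a group, is plotted against the mean log2 level of 8 squamous epithelium markers, 1 point per array, coloured by group. Control tamoxifen array 1 has the lowest Gcnt1 level (8.39) and the lowest marker mean (6.48), and the lowest St3gal4 array (7.26) has a marker mean of 9.30.

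Of 7 fucosyltransferases, 1, Fut2, rose and 0 fell against control tamoxifen (14.3%, beside 24.6% of all genes called). Against mutant NaCl, Fut2 rose and Fut10 fell (28.6%, beside 23.2% of all genes). Fut2 makes the α1,2-fucose of the H antigen on gut mucins and is the secretor gene in humans. Fut2 (gene ID 14344) was at 12.22, 12.21, 12.66 and 11.89 in mutant tamoxifen mice, at 11.40, 11.46, 11.47 and 11.37 in mutant NaCl mice, and at 11.29, 11.43 and 11.49 in control tamoxifen mice. The mutant tamoxifen arrays spread more than the others and all lay above them. Fut2 was 1.88-fold higher than in control tamoxifen mice (limma, log2 difference 0.91, SE 0.14, adjusted p = 0.0013) and 1.77-fold higher than in mutant NaCl mice (log2 difference 0.82, SE 0.12, adjusted p = 0.000945). Fut10 fell by 0.25 (adjusted p = 0.0149) against mutant NaCl on the log2 scale, and had a difference of -0.21 (adjusted p = 0.0506) from control tamoxifen. Fut4, Fut7, Fut8, Fut9 and Fut11 passed in neither comparison, among them Fut8, the core fucosyltransferase of N-glycans (0.20 from control tamoxifen, adjusted p = 0.223). Without mutant NaCl array 4 the Fut10 call against mutant NaCl was lost (-0.21, adjusted p = 0.0548), while its difference from control tamoxifen passed without mutant tamoxifen array 2 (-0.24, adjusted p = 0.0412) or mutant NaCl arrays 1 or 4 (-0.22 and -0.23).

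The N-glycan branching genes held the largest rise of all members. Of 11 Mgat genes, 3 rose and 2 fell against control tamoxifen (45.5%, beside 24.6% of all genes called). Against mutant NaCl, 3 rose and 1 fell (36.4%, beside 23.2% of all genes). Mgat4c, a relative of the β1,4-N-acetylglucosaminyltransferases Mgat4a and Mgat4b, was at 10.22, 10.03, 10.37 and 9.83 in mutant tamoxifen mice, at 7.65, 8.32, 7.96 and 7.23 in mutant NaCl mice, and at 7.21, 7.21 and 8.60 in control tamoxifen mice. Even control tamoxifen array 3, the highest array outside the mutant tamoxifen group, was more than 1 log2 unit below its lowest array. Mgat4c (gene ID 67569) differed by 2.47 from control tamoxifen (limma, SE 0.36, adjusted p = 0.00119) and by 2.32 from mutant NaCl (SE 0.31, adjusted p = 0.000695) on the log2 scale, the second a 4.99-fold difference.

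Mgat4a and Mgat4b, which add the same branch, moved in opposite directions. Mgat4b rose by 0.37 (limma, adjusted p = 0.00529) against control tamoxifen and by 0.33 (adjusted p = 0.00431) against mutant NaCl. Mgat4a fell by 0.24 (adjusted p = 0.0216) and 0.21 (adjusted p = 0.0212) in the same comparisons. Mgat2, which opens the second arm of complex N-glycans, was at 9.28, 9.27, 9.44 and 9.49 in mutant tamoxifen mice, at 9.07, 8.97, 9.10 and 8.79 in mutant NaCl mice, and at 8.68, 8.98 and 8.97 in control tamoxifen mice. No array of another group reached the mutant tamoxifen range. Mgat2 rose by 0.45 (limma, SE 0.1, adjusted p = 0.00902) against control tamoxifen and by 0.39 (SE 0.088, adjusted p = 0.00935) against mutant NaCl.

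Mgat3, which adds the bisecting N-acetylglucosamine, was at 8.73, 8.68, 8.67 and 8.55 in mutant tamoxifen mice, at 8.89, 8.88, 8.79 and 8.75 in mutant NaCl mice, and at 9.07, 9.04 and 8.91 in control tamoxifen mice. The 3 groups formed a series without overlap. Mgat3 fell by 0.37 (limma, SE 0.069, adjusted p = 0.004) against control tamoxifen, and its difference from mutant NaCl was -0.17 (adjusted p = 0.0664). Mgat1, Mgat4d, Mgat5 and Mgat5b passed in neither comparison, with differences of 0.00 to 0.05 from control tamoxifen, nor did Mgat4e and Mgat4f. Without mutant tamoxifen array 3 the calls against control tamoxifen were lost for Mgat2 (0.33, adjusted p = 0.077) and Mgat4a (-0.18, adjusted p = 0.14), and for Mgat4a also without control tamoxifen array 1 (-0.19, adjusted p = 0.0564) or 2 (-0.28, adjusted p = 0.0532). Against mutant NaCl the Mgat4a call was lost without mutant tamoxifen array 3 or mutant NaCl arrays 2, 3 or 4 (-0.17 to -0.20).

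**Figure D4:**
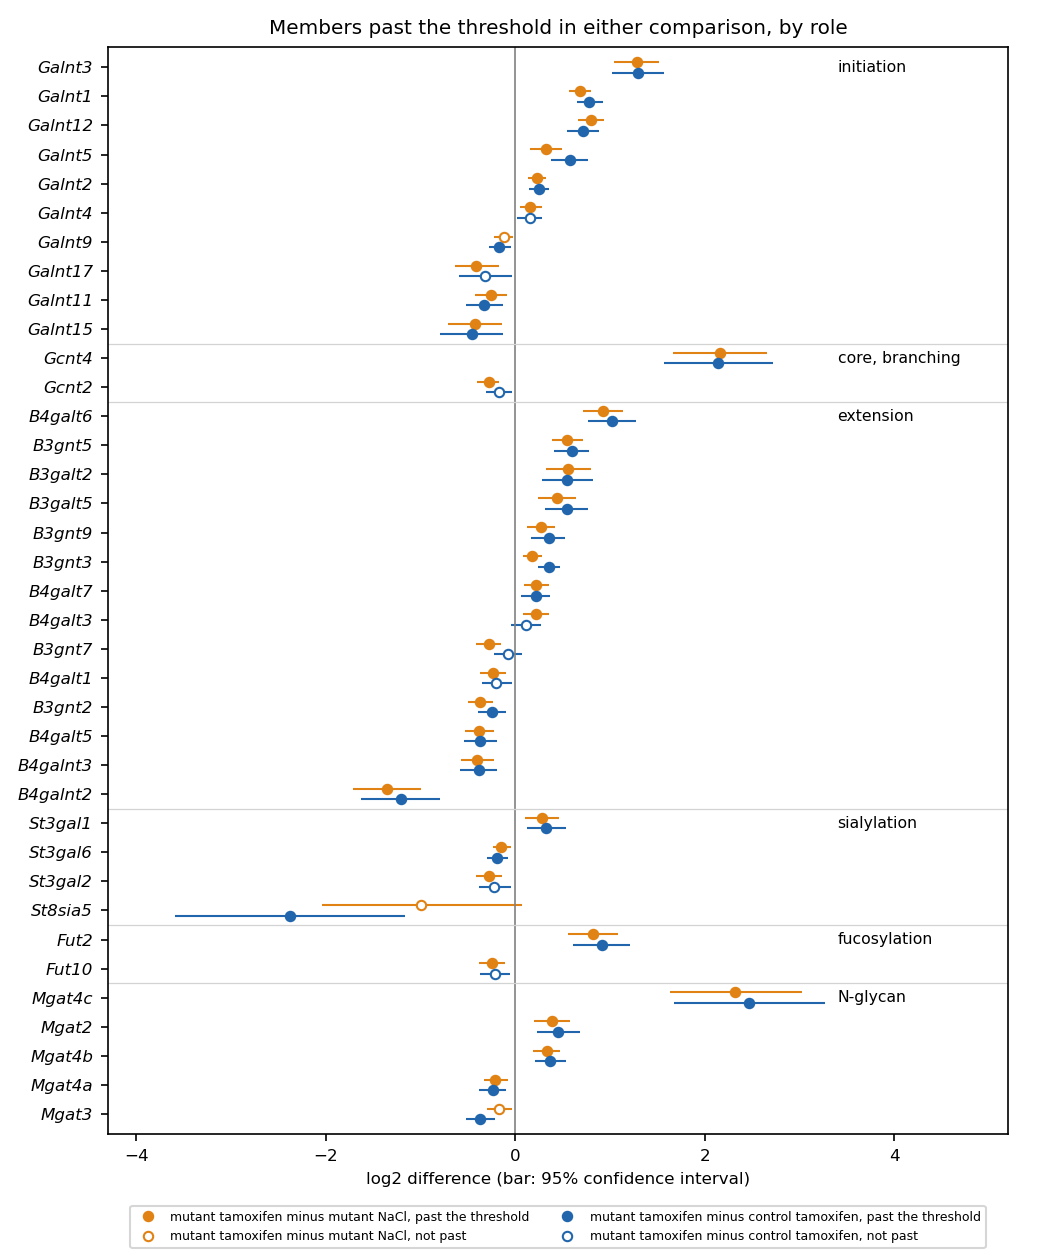
The 37 members that passed in either comparison are listed by role. Points are log2 differences of mutant tamoxifen minus mutant NaCl (orange) and minus control tamoxifen (blue), filled where the adjusted p was under 0.05, and bars are 95% confidence intervals. Mgat4c and Gcnt4 stand above 2 in both comparisons, St8sia5 has the widest bars, and B4galt6 with B4galt5 and Mgat4b with Mgat4a lie on opposite sides of 0.

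No member was called between mutant NaCl and control tamoxifen mice. In limma 0 of 83 members and 0 of all genes (0%) were called. At an unadjusted p under 0.05 there were 9 members (10.8%), against 8.14% of all genes. The smallest adjusted p of a member was 0.459, for B3gnt6, with a log2 difference of -0.29 (mutant NaCl minus control tamoxifen). The groups were apart for 13 members (15.7%), where 8.13% of all genes were. The largest difference was that of St8sia5 (-1.39, SE 0.55, adjusted p = 0.59), and Galnt5 (0.26) and Fut4 (0.21) were among those above all control tamoxifen arrays. Galnt3 had a difference of 0.01 (95% confidence interval -0.26 to 0.29) and Gcnt4 one of -0.01 (-0.59 to 0.56).

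Most of the called genes around the pathway were higher in mutant tamoxifen mice. Of 45 measured genes for mucin backbones, core 1 synthesis, sugar donors, donor transport and sulfation, 10 rose and 1 fell against control tamoxifen, and 11 rose and 1 fell against mutant NaCl, with medians of 0.06 and 0.08. These are 24.4% and 26.7%, near the 24.6% and 23.2% of all genes. C1galt1, the core 1 synthase, was at 11.77, 11.86, 11.78 and 11.87 in mutant tamoxifen mice, at 11.33, 11.32, 11.48 and 11.44 in mutant NaCl mice, and at 11.43, 11.36 and 11.31 in control tamoxifen mice. The mutant tamoxifen arrays stood apart, with log2 differences of 0.46 from control tamoxifen (limma, adjusted p = 0.000593) and 0.43 from mutant NaCl (adjusted p = 0.000302). C1galt1c1, its chaperone Cosmc, rose by 0.33 (adjusted p = 0.0134) and 0.31 (adjusted p = 0.00814) in the same comparisons.

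The carriers of CMP-sialic acid and GDP-fucose into the Golgi also rose, while most genes of these lists passed in neither comparison. Of 8 donor transport genes, 3 rose and 0 fell in each comparison (37.5%). Of 16 donor synthesis genes, 3 rose against control tamoxifen (18.8%) and 4 against mutant NaCl (25%), and 0 fell. Of 8 sulfation genes, 1 rose in each comparison and 1 fell against control tamoxifen (25% and 12.5% called). Of all genes, 24.6% and 23.2% were called. Slc35a1, for CMP-sialic acid, rose by 0.64 (limma, adjusted p = 0.00113) against control tamoxifen and by 0.46 (adjusted p = 0.00253) against mutant NaCl. Slc35d2, a nucleotide sugar transporter, rose by 0.27 (adjusted p = 0.022) against mutant NaCl, with a difference of 0.18 (adjusted p = 0.147) from control tamoxifen. Slc35c1, for GDP-fucose, rose by 0.50 (adjusted p = 0.00194) and 0.45 (adjusted p = 0.00149), and Gmds, the first enzyme of GDP-fucose synthesis from GDP-mannose, by 0.38 (adjusted p = 0.0147) and 0.35 (adjusted p = 0.0116). Nans, the sialic acid synthase, rose by 0.28 (adjusted p = 0.00763) and 0.22 (adjusted p = 0.0125), and Pgm3, of UDP-N-acetylglucosamine synthesis, by 0.28 (adjusted p = 0.0138) and 0.31 (adjusted p = 0.00453). Chst4, which sulfates N-acetylglucosamine, had the largest rise of these genes, 0.77 (adjusted p = 0.0275) against control tamoxifen and 1.01 (adjusted p = 0.00404) against mutant NaCl.

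Of 11 mucin genes, 1 rose and 0 fell against control tamoxifen (9.09%, beside 24.6% of all genes called). Against mutant NaCl, 1 rose and 1 fell (18.2%, beside 23.2% of all genes). Muc2, the secreted mucin of goblet cells, rose by 0.25 against mutant NaCl (limma, adjusted p = 0.00495), with a difference of 0.12 from control tamoxifen (adjusted p = 0.161). Muc3, a membrane-bound mucin of the intestine, was at 13.22, 13.30, 13.38 and 13.43 in mutant tamoxifen mice, at 13.62, 13.49, 13.58 and 13.57 in mutant NaCl mice, and at 13.43, 13.52 and 13.50 in control tamoxifen mice. It fell by 0.23 against mutant NaCl on the log2 scale (limma, adjusted p = 0.00676), with a difference of -0.15 from control tamoxifen (adjusted p = 0.0818). Membrane-bound Muc4 rose by 0.68 against control tamoxifen (adjusted p = 0.00377), with a difference of 0.29 from mutant NaCl (adjusted p = 0.0816). Gal3st1, which makes sulfatide, fell by 0.34 against control tamoxifen (adjusted p = 0.0181), with a difference of -0.22 from mutant NaCl (adjusted p = 0.0591). Without mutant tamoxifen array 3, 4 of the 45 genes passed against control tamoxifen, and the share of all genes called was then 12.6%.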

How the data were processed

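Per the labels, the authors made RMA values on the log2 scale, 1 per transcript cluster and array, in Affymetrix Expression Console. Its version was 1.1, and Command Console 2.0 read the images, per the series design text. Partek is listed in the submitters' processing notes, and its use is not described. The genome build is not given in the sources used here.

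The deposited table held 35556 transcript clusters, of which the platform annotation gave 21789 exactly 1 gene symbol, and 1621 several, while 12146 were not listed. Clusters without 1 symbol were left out. Symbols were checked against RefSeq (GRCm38.p6, names only): 21766 matched, 2 were updated by accession and 21 stayed unmatched. The cluster with the highest mean stood for a gene, with no filter on low levels. St3gal1 and Fut11 had 2 clusters each.

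All 11 arrays entered 1 limma fit (version 3.58.1, R 4.3.3) on group and sex, with variances moderated by a trend on the mean level and two-sided tests. The fit was checked on simulated data. Members, roles and gene lists were chosen with earlier results of these data known. Every member past the threshold of 0.05 against control tamoxifen or mutant NaCl is named. Values in every array are given for the 20 with the largest differences and for 8 members known for mucin or colonic glycans. St3gal4 was chosen after its values were seen. Alternatives were a fit that ignored sex, female arrays by themselves, the 2 compared groups by themselves, the lowest 25% or 50% of genes left out, median centring, a second quantile normalisation, no variance trend, the mean over clusters, and leaving out each array.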

Additional observations from a re-analysis of the deposited data

Results flagged for a closer look

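Among 41 named members, the 82 groups of 4 arrays were searched for an array far from the other 3 by Dixon's gap test. Chance flags about 5% of groups, and 4 of 82 were found, a number near that share. B3galt5 was highest, at 12.07, in mutant tamoxifen array 3. B3gnt6 was highest, at 6.46, in mutant tamoxifen array 1. B4galnt2 was lowest, at 11.57, in mutant NaCl array 4. St6galnac1 was highest, at 6.08, also in mutant NaCl array 4.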

How the results depend on the processing

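No call of a named member changed direction under any alternative. Of 1704 values of named members under an alternative, 156 lost a call, 44 gained one and 1504 were counted as the same. The last include changes of sign where the main value was not called, as for Gcnt1 against control tamoxifen. Against control tamoxifen, 10 of 18 calls upward held in every alternative run (B3galt5, B3gnt3, B3gnt5, B4galt6, Fut2, Galnt1, Galnt12, Galnt3, Gcnt4 and Mgat4c), and 1 of 11 downward (B4galnt2). Against mutant NaCl, 13 of 20 upward and 6 of 14 downward did so. The 11 members lower than in control tamoxifen became 17 with no sex term, 3 in female arrays alone and 4 with the squamous marker mean as a term, an alternative chosen after seeing the data. Leaving out 1 array gave 3 to 14. Without control tamoxifen array 2 there were 3, and without mutant tamoxifen array 3 there were 7. The 18 higher than in control tamoxifen became 12 in female arrays alone, where 7 of the 18 calls were lost, and ranged from 13 to 20 as single arrays were left out. The share of all genes called against control tamoxifen, 24.6%, was 28.4% with no sex term, 6.95% in female arrays alone, 14.6% with the squamous term, 15.2% without control tamoxifen array 2 and 12.6% without mutant tamoxifen array 3. Against mutant NaCl, female arrays alone gave 13 members higher and 8 lower, and leaving out 1 array gave 15 to 21 higher and 8 to 15 lower, while the share of all genes called, 23.2%, was 16.0% in female arrays alone. Female arrays alone, with 1 control tamoxifen array assumed to vary like the others, also ended calls that leaving out single arrays did not. These were Galnt2 (0.26, adjusted p = 0.0852), Galnt5 (0.47, adjusted p = 0.061), Mgat3 (-0.39, adjusted p = 0.0567) and Mgat4b (0.29, adjusted p = 0.0896) against control tamoxifen, and Galnt5 (0.26, adjusted p = 0.085) and St3gal2 (-0.24, adjusted p = 0.0555) against mutant NaCl. The lowest counts of members lower than in mutant NaCl were without mutant NaCl array 4 (8, with 18.3% of all genes called) and array 3 (9, with 19.0%). The 11 genes around the pathway called against control tamoxifen became 4 in female arrays alone, 7 with only the arrays of the 2 groups compared and 7 with the squamous term, and 4 to 13 as single arrays were left out. The 12 called against mutant NaCl ranged from 11 to 15. Fewer arrays entered the fits of females, of 2 groups and without an array; the cause of the other changes was not tested. Between mutant NaCl and control tamoxifen mice 0 members were called in every alternative. With arrays centred on their median, 3016 of all genes were higher and 1807 lower than in control tamoxifen, against 2570 and 2343 without centring. No paired analysis was made, because each array is from a separate mouse and the labels pair none. The number of arrays limits what small differences can show, and no detection call shows which low levels are above background.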
